A study of Mus musculus with 6 samples.

Results

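The first hour of recovery after electrical pacing was described by setting skeletal muscle taken 1 h after pacing against muscle taken 0 h after it. These were 2 of the 6 arrays of the study, each the only array of its group. In both groups mice carried an implanted pacer that stimulated the muscle for 3 h, and the muscle was harvested either at once or 1 h later. The labels give no strain, genotype, age, sex or muscle, and do not say how many mice were behind an RNA. Both arrays had 2 channels, with the paced muscle in channel 1 and RNA of control muscle, named Pre, in channel 2. The ratio was read as sample over Pre, the likely direction, because Pre is named as the reference and the dyes are not stated. Every direction below rests on that reading. The comparison was the log2 ratio to Pre at 1 h minus the log2 ratio to Pre at 0 h, each array centred on its median, over the 11538 of 13872 probes measured on both arrays. Measured means that the cell was neither empty nor 0 (within 1e-12 on the log10 scale). The mean of a gene's probes gave values for 3536 of the 3939 genes named on the platform. Since each group had a single array, no spread between animals could be measured and no test was run, and higher and lower below mean at least 2-fold (a log2 difference of 1 or more in size) unless another fold is named.

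Contraction raises calcium, uses up ATP and glycogen and pulls on the fibre, and each of these alters transcription in the muscle nuclei. Early response genes code for transcription factors and signal inhibitors whose messages appear and decay fast. Messages for fuel selection, such as that of the pyruvate dehydrogenase kinase Pdk4, and for protein breakdown, such as those of the muscle ubiquitin ligases, are also known to move with activity, fasting and stress hormones. The end of stimulation is therefore a point at which short-lived messages can decay while slower ones still rise.

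Ratios on the 1 h array lay closer to Pre than those on the 0 h array. The robust SD of the log2 ratios to Pre, over each array's measured probes, was 0.176 at 1 h and 0.292 at 0 h, a ratio of 0.603. On the 3 h, 8 h and 24 h arrays it ran from 0.242 to 0.445, so the 1 h array had the narrowest spread of the 5 paced arrays. The tails were drawn in less than the centre, with the 99th percentile at 0.93 against 1.25 (a ratio of 0.744) and the 1st percentile at -0.74 against -0.97 (a ratio of 0.767). Probes of the same gene also lay closer together at 1 h, with a median SD between probes of 0.133 against 0.216 over the 957 genes with several probes. The 1 h array also holds none of the floating-point residues found on the other 4 paced arrays, and the sources used here do not say whether the arrays were processed alike. A difference in processing and the time after pacing cannot be told apart in any 1 h minus 0 h value. What set the narrow spread was not tested. Because a narrow array by itself moves genes towards Pre, counts and list medians are also given after both arrays were scaled to 1 common robust SD, called scaled below. This scaling is set by the centre, and the tails were drawn in less, so scaled tails were wider at 1 h than at 0 h. Whether scaling stretches the genes far from Pre too much was not tested. Scaled, 52 genes were 2-fold from Pre at 1 h and 42 at 0 h, against 27 and 77 unscaled. For genes far from Pre, scaled values are therefore a second reading and not a correction.

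**Figure D1:**
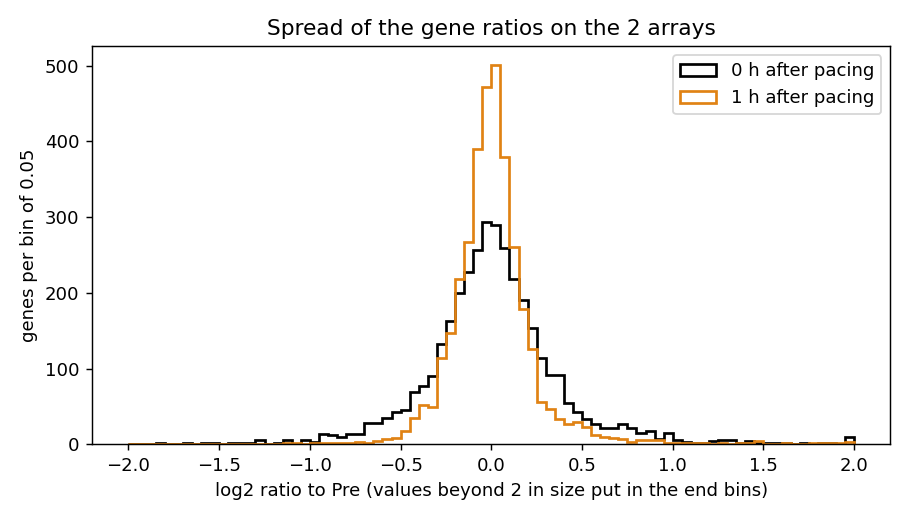
Number of genes in each bin of the log2 ratio to Pre on the 0 h array (black) and on the 1 h array (orange), for the 3536 genes measured on both. The 1 h values form the taller and narrower peak, with a robust SD over genes of 0.152 against 0.261 at 0 h.

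Across the 3536 genes, 18 were lower at 1 h than at 0 h (0.509%) and 17 were higher (0.481%), together 35 genes or 0.99%. At 1.5-fold, 108 genes were lower (3.05%) and 112 higher (3.17%). The median difference over all genes was -0.01, with 1720 genes above 0 and 1816 below. Scaled arrays gave 8 lower and 7 higher genes, of which 7 and 4 were also in the first count. Of the 18 lower genes, 16 had stood above Pre at 0 h and stood nearer to it at 1 h. Of the 17 higher genes, 16 had stood below Pre at 0 h and stood nearer to it at 1 h. The exceptions were Rhd and Abhd10 among the lower genes and Nob1 among the higher. These counts describe the choice, since genes picked for a large difference between a wide and a narrow array tend to start far from Pre and end near it.

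**Figure D2:**
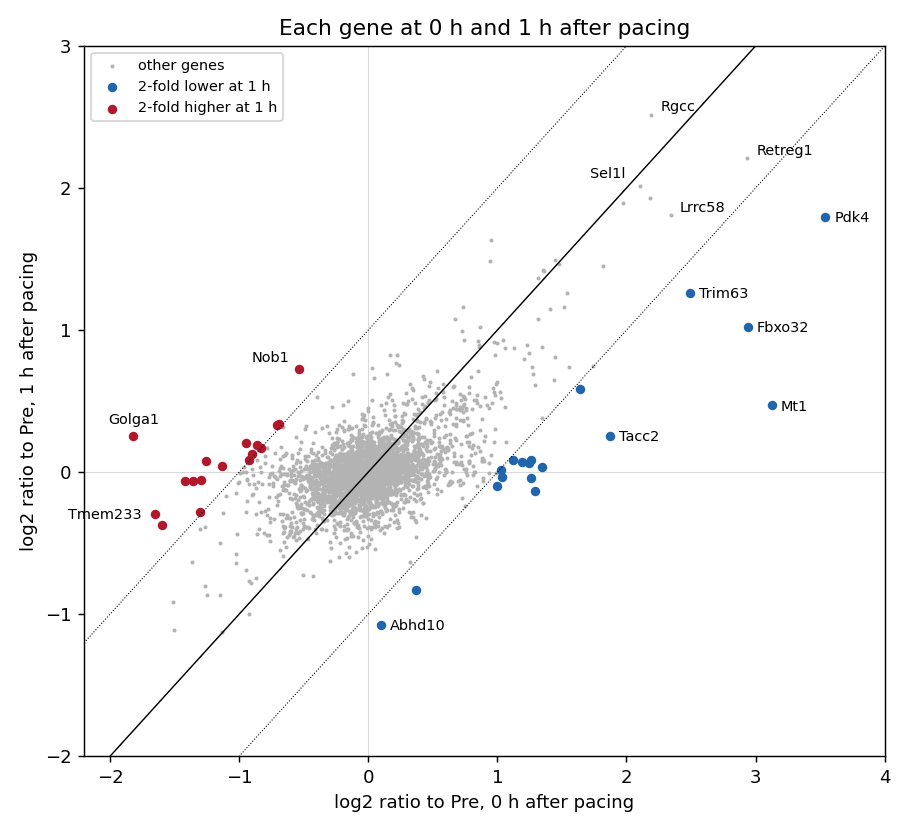
Log2 ratio to Pre at 0 h (horizontal axis) against that at 1 h (vertical axis), each point a gene; the solid line marks equal values and the dotted lines a 2-fold difference. The 18 genes that were 2-fold lower at 1 h (blue) lie at the right and lower edge, led by Mt1, Fbxo32 and Pdk4, and the 17 that were 2-fold higher (red) lie at the left, led by Golga1.

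The 3 genes that fell most, Mt1, Fbxo32 and Pdk4, were also the 3 genes farthest above Pre at the end of pacing. Mt1, a metallothionein that binds zinc and copper, had a log2 ratio to Pre of 3.13 at 0 h and 0.47 at 1 h, a difference of -2.65 or 6.30-fold on 1 probe. It went from rank 2 of 3536 genes to rank 123, an ordering that scaling does not alter. At 3 h, 8 h and 24 h Mt1 stood at 0.88, 3.16 and 3.59, so the low values were those at 1 h and 3 h.

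Fbxo32, which codes for the muscle ubiquitin ligase atrogin-1, had a log2 ratio to Pre of 2.94 at 0 h and 1.02 at 1 h, a difference of -1.91 or 3.77-fold on 1 probe. Like Mt1 it was low at 3 h (1.05) and high at 8 h (2.29) and 24 h (3.01). Trim63, the muscle ubiquitin ligase MuRF1, stood at 2.49 at 0 h and 1.26 at 1 h, a difference of -1.23 (2 probes, probe SD 0.61). Both of its probes were lower at 1 h, one from 2.17 to 0.51 and the other from 2.81 to 2.01. At 3 h the mean of its probes was 2.08, but they lay far apart, at 0.76 for the first and 3.40 for the second. Scaled differences were -0.96 for Fbxo32 and -0.31 for Trim63, both under 2-fold. Fbxo32 went from rank 3 to rank 23 and Trim63 from rank 5 to rank 17, so both stayed among the highest genes of the 1 h array.

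Pdk4, the kinase that shuts pyruvate out of oxidation by phosphorylating pyruvate dehydrogenase, had the highest ratio of all genes at 0 h, 3.54. It stood at 1.80 at 1 h, a difference of -1.74 (2 probes, probe SD 0.66). The probes went from 3.31 to 1.10 and from 3.78 to 2.50. At 3 h, 8 h and 24 h Pdk4 stood at 2.60, 2.32 and 1.67, so the 1 h value was below those at 3 h and 8 h and near that at 24 h. Its rank went from 1 to 7, and its scaled difference was -0.43, under 2-fold. Mt1 was the member of this group whose fall remained 2-fold after scaling, at -1.82.

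Promoters of 3 genes that fell are shown because they match the same loose palindrome pattern. This pattern of a glucocorticoid response element (G, any base, ACA, 3 bases of any kind, TGT, any base, C), searched on both strands in the 250 bases before the transcript start, was found in Mt1, Trim63 and Serpina3n. It leaves 1 base of each arm free, and the arms form a full inverted repeat in Trim63 but not in Mt1 or Serpina3n. These were 3 of the 16 lower genes with a promoter in the RefSeq table (GRCm38.p6), against 0 of the 15 higher genes and 0.440% of all 27025 genes in the table. Fbxo32 and Pdk4, which fell more than Trim63 and Serpina3n, were not among the genes with a match. The motif was chosen after the values had been seen, and a match describes letters and does not show a working site. Capitals mark the match, which lies at -94 to -82 in Mt1 (chr8:94178839-94179088, plus strand), at -208 to -196 in Trim63 (chr4:134314870-134315119, plus strand) and at -78 to -66 in Serpina3n (chr12:104406458-104406707, plus strand), counted back from the start, with the sequences 5′ to 3′:
Mt1: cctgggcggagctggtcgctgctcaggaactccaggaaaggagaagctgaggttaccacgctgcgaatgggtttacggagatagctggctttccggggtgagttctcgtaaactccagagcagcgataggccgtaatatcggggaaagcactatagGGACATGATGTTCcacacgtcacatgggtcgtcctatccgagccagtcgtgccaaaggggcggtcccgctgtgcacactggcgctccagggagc
Trim63: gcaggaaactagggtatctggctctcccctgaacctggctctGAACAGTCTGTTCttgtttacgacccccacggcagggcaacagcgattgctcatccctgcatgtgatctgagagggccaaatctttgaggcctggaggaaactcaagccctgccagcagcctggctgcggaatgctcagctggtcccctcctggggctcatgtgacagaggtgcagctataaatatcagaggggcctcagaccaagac
Serpina3n: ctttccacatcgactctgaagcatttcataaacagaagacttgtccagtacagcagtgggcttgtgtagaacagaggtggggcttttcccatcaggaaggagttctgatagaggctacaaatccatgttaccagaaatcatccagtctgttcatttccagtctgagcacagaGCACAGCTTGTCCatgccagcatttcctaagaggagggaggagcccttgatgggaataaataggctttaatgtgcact

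Other motifs were searched in the same windows. The FoxO site TGTTTAC, also chosen after the values were seen, lay in 3 of the 16 lower genes, Trim63, Klf9 and Cisd3, in 1 of the 15 higher genes and in 3.54% of all genes. In Trim63 it lies at -194 to -188, beside the palindrome without overlapping it. The metal response element, searched in the loose form TGCNCNC, lay in 4 lower genes, Mt1 among them at -23 to -17, in 11 higher genes and in 47.2% of all genes. The cAMP response element TGACGTCA and the heat shock element (GAA, 2 bases, TTC, 2 bases, GAA) lay in 0 of the lower and 0 of the higher genes, against 1.77% and 0.514% of all genes. The shorter site TGACG, which is part of the full cAMP element, lay in 5 lower and 5 higher genes (19.8% of all genes), and the AP-1 site TGANTCA in 1 lower and 1 higher gene (7.82%).

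Klf9, Plcb4 and Itpr2 were near Pre at 1 h, and Klf9 was above it again at 8 h and 24 h. Klf9, a Krüppel-like transcription factor, had a log2 ratio to Pre of 1.26 at 0 h and -0.04 at 1 h, a difference of -1.30 on 1 probe. It was then at -0.36 at 3 h, 0.61 at 8 h and 0.45 at 24 h. Plcb4, a phospholipase C that releases inositol trisphosphate, went from 1.29 to -0.13 (difference -1.43, 1 probe) and stayed between -0.32 and -0.11 at later times. Itpr2, a receptor channel for inositol trisphosphate, went from 1.00 to -0.09 (difference -1.09, 1 probe) and stayed between -0.29 and -0.21. Plcb4 and Itpr2 were therefore above Pre on the 0 h array alone among the 5 paced arrays. Scaled differences were -1.18 for Plcb4, -1.03 for Klf9 and -0.90 for Itpr2.

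Serpina3n, Dnajb1 and Eif4a1 gave a mixed later course. Serpina3n, an acute phase protease inhibitor, went from 1.64 at 0 h to 0.59 at 1 h (difference -1.06, 1 probe) and was at 1.12, 1.96 and 1.15 at 3 h, 8 h and 24 h. Dnajb1, an Hsp40 partner of Hsp70, went from 1.12 to 0.09 (difference -1.03, 1 probe) and was at 0.49, -0.20 and 0.66 later. Eif4a1, the RNA helicase of translation initiation, went from 1.35 to 0.03 (difference -1.31, 1 probe) and was at 0.10, 1.17 and 2.32 later. Eif4a1 and Serpina3n were thus as high or higher at a later time, whereas Dnajb1 did not reach its 0 h ratio again on these arrays. Scaled differences were -1.001 for Eif4a1, -0.76 for Dnajb1 and -0.52 for Serpina3n.

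The remaining lower genes had varied roles and 1 measured probe each. Tacc2, a centrosomal coiled-coil protein, went from 1.87 to 0.26 (difference -1.62) and was at 1.36 at 8 h and 2.16 at 24 h. Cnn3, an actin-binding calponin, went from 1.19 to 0.07 (-1.11). Cisd3, a mitochondrial iron-sulphur protein, went from 1.25 to 0.07 (-1.18), and Arcn1, a subunit of the coatomer of Golgi vesicles, from 1.26 to 0.09 (-1.17). Tacc2 and Cnn3 were high again at 24 h, at 2.16 and 0.99, while Cisd3 and Arcn1 lay within 0.36 of Pre at all later times. Babam1, a subunit of a BRCA1-containing complex, went from 1.04 to -0.04 (-1.07), but its difference was -0.18 when a probe missing on 1 of the arrays was let in. Rhd, a Rh blood group antigen gene of red cells, and Abhd10, a mitochondrial hydrolase, went the other way relative to Pre. Rhd left 0.37 for -0.83 (-1.20) and Abhd10 left 0.10 for -1.08 (-1.18), and Abhd10 was at -2.41 at 3 h.

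Of the 18 lower genes, 15 had been at least 2-fold above Pre at 0 h, and 3 were at 1 h, namely Fbxo32, Pdk4 and Trim63. At 3 h, 8 h and 24 h, 4, 7 and 7 of the 18 were 2-fold above Pre. Of all 3536 genes, 50 were 2-fold above Pre at 0 h and 24 at 1 h. The 3 h, 8 h and 24 h values were not scaled, and the robust SDs of these arrays were 0.445, 0.242 and 0.399, against 0.176 at 1 h. A wide array puts more genes past a fixed cut, so these counts cannot be compared between times. The median ratio of the 18 was 1.26 on the 0 h array and 0.07 on the 1 h array, followed by 0.25, 0.68 and 0.82 on the later arrays. The genes were chosen on their 0 h and 1 h values, so the first 2 medians describe the choice. The later arrays were not used for it, but genes picked for a low 1 h value tend to stand higher on other arrays. The later arrays also differ in spread, so a return after 1 h cannot be read from these medians.

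**Figure D3:**
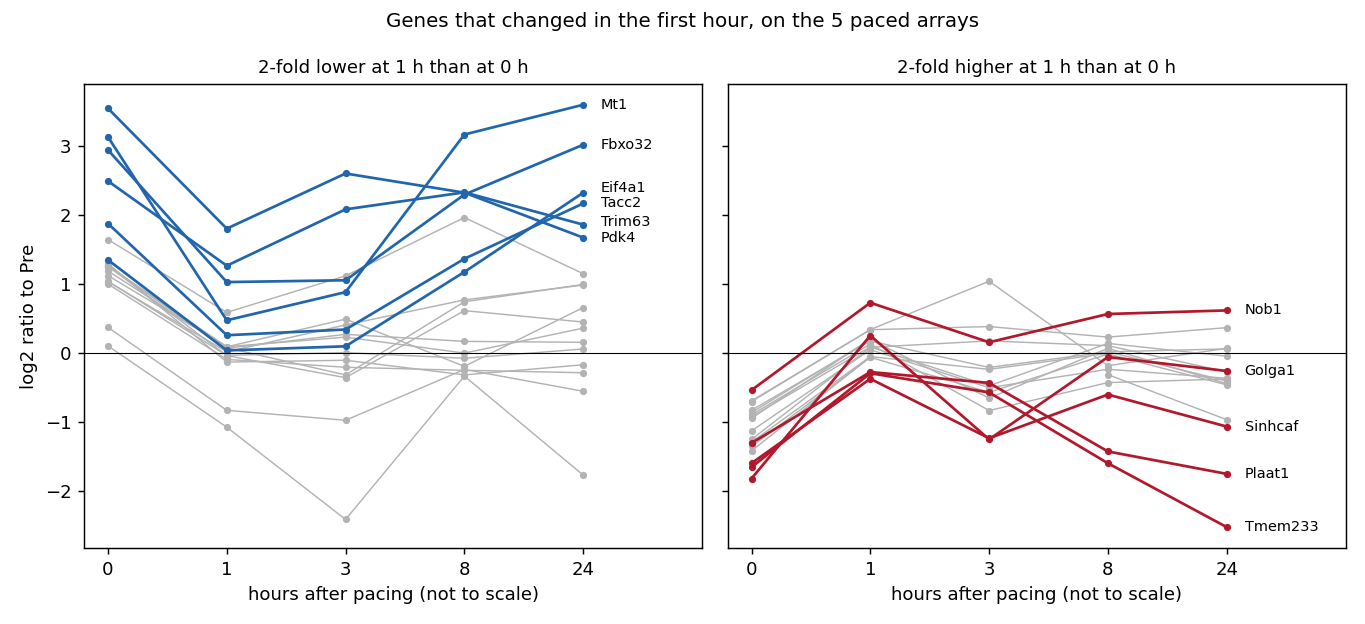
Log2 ratios to Pre on the 5 paced arrays (horizontal axis, hours after pacing, not to scale) for the 18 genes that were 2-fold lower at 1 h (left) and the 17 that were 2-fold higher (right), 1 line a gene with a break where a value is missing. Named genes are coloured; Mt1 and Fbxo32 return above 3 at 24 h, and Tmem233 and Plaat1 end below Pre at -2.52 and -1.75.

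The genes that rose in the first hour were led by Golga1, Tmem233, Ppm1f and Lrpprc, and each of the 17 rested on 1 measured probe. Golga1, a golgin that tethers vesicles at the trans-Golgi, had the lowest ratio of all 3536 genes at 0 h, -1.82, and stood at 0.25 at 1 h, a difference of 2.07 or 4.20-fold. It was at -1.25 at 3 h and then at -0.06 and -0.26. Scaled, its difference was 1.74. Golga1 was thus low on the 0 h and 3 h arrays and lay between -0.26 and 0.25 on the 1 h, 8 h and 24 h arrays.

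Lrpprc, which binds and stabilises mitochondrial messages, went from -1.25 to 0.08 (difference 1.33) and lay between -0.28 and 0.17 at later times. Ppm1f, a phosphatase that acts on calcium/calmodulin-dependent kinases, went from -1.42 to -0.06 (1.36) and was at -0.97 at 24 h. Plekha8, a lipid carrier of the Golgi, went from -1.35 to -0.06 (1.29). Lrpprc remained near Pre after the first hour, and Ppm1f moved away from it again. Scaled differences were 1.08 for Lrpprc, 1.02 for Ppm1f and 0.97 for Plekha8.

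Nob1, the endonuclease that trims the end of 18S ribosomal RNA, was the higher gene that moved away from Pre, from -0.54 at 0 h to 0.73 at 1 h (difference 1.27). It was at 0.15, 0.56 and 0.61 later. Nxf1, the main exporter of messenger RNA, went from -0.87 to 0.19 (1.06) and was at -0.66 at 3 h. Vps33a, of the complexes that tether endosomes to lysosomes, went from -0.70 to 0.34 (1.04) and stayed between 0.23 and 0.38. Nob1 and Vps33a were therefore below Pre on the 0 h array alone among the 5. Scaled, Nob1 differed by 1.35, Vps33a by 0.98 and Nxf1 by 0.92.

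A set of the higher genes stood low again later. Tmem233, which codes for a transmembrane protein, went from -1.66 at 0 h to -0.30 at 1 h (1.36) and was at -0.57, -1.60 and -2.52 at 3 h, 8 h and 24 h. Plaat1, a phospholipid-metabolising acyltransferase, went from -1.31 to -0.28 (1.03) and was at -0.44, -1.43 and -1.75. Sinhcaf, a subunit of a histone deacetylase complex, went from -1.60 to -0.38 (1.22) and was at -1.24, -0.60 and -1.07. These were the 3 higher genes that stood 2-fold below Pre at 24 h. They also kept low places at 1 h, at ranks 3344, 3298 and 3420 of 3536, and their scaled differences were 0.91, 0.66 and 0.76. With zeros kept, Tmem233 differed by 0.68.

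Other higher genes went from below Pre at 0 h to between -0.05 and 0.34 at 1 h. Abcb9, a lysosomal peptide transporter, went from -1.29 to -0.05 (1.24), and Ppic, a cyclophilin that helps proteins fold, from -1.13 to 0.04 (1.17). Nudt8, a nudix hydrolase, went from -0.95 to 0.20 (1.15), and Pgm5, a relative of phosphoglucomutase found at cell junctions, from -0.90 to 0.13 (1.03). Gpat4, which starts glycerolipid synthesis, went from -0.69 to 0.34 (1.03), but differed by 0.39 when a probe missing on 1 array was let in and by 0.04 with zeros kept. Near the threshold, Ube3a at -1.02, Gtf2h1 at 1.01 and Abcd3 at 1.00 lay just inside it, and Celf2 at 0.999, Mettl3 at -0.995 and Pde4b at -0.99 just outside; these 6 were named after their values were seen. Of the 17 higher genes 9 had been 2-fold below Pre at 0 h and 0 were at 1 h. On the 3 h array this held for 2 of the 15 measured, on the 8 h array for 2 of 17 and on the 24 h array for 3 of 16. These values were not scaled and the arrays differ in spread, so these counts cannot be compared between times.

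Not all genes that stood far from Pre at the end of pacing returned in the first hour. At 0 h, 50 genes were 2-fold above Pre and 27 below. At 1 h, 19 of the 50 were still 2-fold above, and 2 of the 27 still 2-fold below. Scaled, 21 of 31 were still 2-fold above and 2 of 11 still 2-fold below. In all, 72 of the 77 stood nearer to Pre at 1 h; these genes were picked on their 0 h ratio, which is part of the comparison, so the count is a description. Scaled, 42 genes were 2-fold from Pre at 0 h and 23 of them stood nearer at 1 h, so this count changed with the scaling. The 5 genes that stood farther out at 1 h were Rgcc, Depp1, Ifrd1, Mapre3 and Pnrc1.

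Among the 10 genes highest at 0 h, Mt1, Fbxo32, Pdk4 and Trim63 fell 2-fold and 6 did not. Rgcc, a cell cycle regulator, went from 2.19 to 2.52 and was the highest gene at 1 h. Sel1l, of the machinery that degrades misfolded proteins of the endoplasmic reticulum, went from 2.11 to 2.02, and Ei24, a membrane protein of that organelle linked to autophagy, from 1.97 to 1.90. Ubb-ps, a ubiquitin pseudogene whose spot may read the ubiquitin genes themselves, went from 2.18 to 1.93. These 4 changed by 0.33 or less in size on the unscaled arrays, as did many others: 16 of the 50 genes changed by at most 0.35. Scaled, all 4 stood higher at 1 h, Rgcc by 1.54, Sel1l by 0.96, Ei24 by 0.91 and Ubb-ps by 0.79. Scaled tails were wider at 1 h than at 0 h, and whether scaling stretches such genes too much was not tested, so these scaled rises are not settled. Lrrc58, a leucine-rich repeat protein, went from 2.34 to 1.81, a difference of -0.54 (0.51 scaled, the opposite sign), and stayed at rank 6. Retreg1, which tags endoplasmic reticulum for autophagy, went from 2.93 to 2.21 on the 1 probe measured on both arrays (-0.73). Its difference was 0.56 scaled and 1.02 when all probes of each array were used, so its direction is not settled.

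Among the 10 genes lowest at 0 h, 6 rose 2-fold (Golga1, Tmem233, Sinhcaf, Ppm1f, Plekha8 and Plaat1). Of the others, Aig1, a membrane hydrolase of fatty acid esters, went from -1.30 to -0.40 (difference 0.90). Prkag3, a regulatory subunit of the AMP-activated kinase in fast fibres, went from -1.51 to -0.92 (difference 0.59, scaled -0.01). Nudt22, a nudix hydrolase, went from -1.51 to -1.11 (0.40, scaled -0.26) on the 1 probe measured on both arrays and was at -1.57, -1.43 and -1.55 later. The difference of Nudt22 was -0.30 when all probes of each array were used, so its direction is not settled. Aqp4, the water channel of fast fibres, went from -1.36 to -0.63 (0.73, scaled 0.24), with 1 probe from -1.13 to -0.08 and the other from -1.59 to -1.19. Prkag3, Nudt22 and Aqp4 thus kept ranks 3532, 3535 and 3519 at 1 h, among the lowest of all genes.

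Gene lists were set beside the median of -0.01 and the 0.509% lower and 0.481% higher of all genes. The atrophy, autophagy and stress proteolysis list had the lowest median difference, -0.33 over its 20 measured members, from a median ratio to Pre of 0.83 at 0 h to 0.40 at 1 h. Of the 20, 13 differed below 0 (65%, against 51.4% of all genes) and 7 above. Scaled, 9 were below 0 and 11 above. Unscaled, 3 were 2-fold lower (Mt1, Fbxo32 and Trim63), 0 were 2-fold higher, and 7 were 1.5-fold lower against 3.05% of all genes. Among these 7 were Retreg1, whose direction is not settled, and Mt1, which codes for a metal-binding protein. Gabarapl1, which builds autophagosome membranes, stood at -0.85 on 1 probe, and Bnip3l, a receptor for autophagy of mitochondria, at -0.77 (2 probes, probe SD 0.40). With scaled arrays the list median was 0.03, so its position below the other genes was seen on unscaled arrays alone. The narrow spread of the 1 h array and a fall of these genes cannot be told apart. The list was chosen with earlier results of these data known.

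The immediate early and signal feedback list had 16 of 21 members below 0 (76.2%, against 51.4% of all genes) and a median of -0.11. Scaled, 12 members were below 0 and 9 above, and the median was -0.02. Unscaled, 1 member was 2-fold lower (against 0.509% of all genes) and 5 members were 1.5-fold lower (against 3.05%). Beside Klf9 these were Gadd45g, a stress-induced growth regulator, from 0.89 to -0.06 (-0.95), and Ccn1, a matricellular protein, from 0.64 to -0.09 (-0.72). Rcan1, the calcineurin inhibitor that calcineurin itself induces, went from 0.90 to 0.25 (-0.65; 2 probes, probe SD 0.12), and its probes differed by -0.56 and -0.73. Sik1, a salt-inducible kinase, went from 1.44 to 0.81 (-0.63, scaled -0.08, 1 probe). At 3 h the 5 members had moved apart, with Sik1 at 2.61, Rcan1 at 0.77, Gadd45g at 0.11, Klf9 at -0.36 and Ccn1 at -0.41.

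Heat shock proteins and chaperones had 23 of 36 members below 0 (63.9%, against 51.4% of all genes), a median of -0.11 and 1 member 2-fold lower, Dnajb1. Scaled, 16 members were below 0 and 20 above, and the median was 0.03. Members went both ways. Pdia3, a disulphide isomerase of the endoplasmic reticulum, went from 0.54 to -0.15 (-0.69), whereas Dnaja1, another Hsp40, went from 0.17 to 0.82 (0.65) and Hspe1, the mitochondrial chaperonin partner, from -0.20 to 0.32 (0.52). Dnaja1 stood at 1.05 at 3 h and 1.18 at 24 h, and Hspe1 at 0.66 and 1.04. Each of these 3 genes had 1 probe.

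In the metabolic lists medians ran from 0.05 to 0.20. The median of the exercise-responsive metabolic regulators was 0.20 (also 0.20 scaled), with 12 of 16 members above 0 (75%, against 48.6% of all genes), 0 members 2-fold higher and Pdk4 2-fold lower. Esrrg, an oestrogen-related nuclear receptor that drives oxidative genes, went from -0.86 to 0.08 (0.95, 1 probe), Mlycd, malonyl-CoA decarboxylase, from 0.67 to 1.07 (0.40) and Ppargc1b, a coactivator, from -0.26 to 0.03 (0.29). Respiratory chain, ATP synthase and TCA cycle genes had 63 of 88 members above 0 (71.6%, against 48.6% of all genes), with a median of 0.08 (scaled 0.07) and 0 members past 2-fold. Uqcrb of complex III, at 0.67, was the 1 member past 1.5-fold, and Ndufv1 of complex I stood at 0.45 (2 probes, probe SD 0.06). Fatty acid genes had a median of 0.08 (scaled 0.10) and 0 members past 2-fold, and Cd36, the fatty acid transporter, went from 1.29 to 0.61 (-0.68). For glycolysis and glycogen the median was 0.05 (scaled 0.02), with 0 members past 2-fold. Pygb, brain-type glycogen phosphorylase, went in the other direction (-0.72), and Gys1, muscle glycogen synthase, went from -0.39 to 0.10 (0.49; 2 probes, probe SD 0.27).

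Contractile and calcium lists held no member past 2-fold. Fast fibre genes had a median of 0.03 (scaled -0.01), slow fibre genes 0.03 (scaled 0.00), calcium handling genes 0.02 (scaled -0.03) and sarcomere and Z-disc genes 0.10 (scaled 0.07), with 0 members past 2-fold in each. Of the 27 sarcomere and Z-disc genes 21 differed above 0 (77.8%, against 48.6% of all genes). Among them were Klhl31, a kelch protein of muscle, from -1.02 to -0.44 (0.58), and Synpo2l, an actin-binding Z-disc protein, from -0.70 to -0.16 (0.54, on 4 probes with a probe SD of 0.37). Ankrd1, a stretch-responsive repeat protein, went from 0.62 to 0.15 (-0.46; 3 probes, probe SD 0.37) before it stood at 0.96 at 3 h and 2.99 at 24 h. Camk2a, a calcium/calmodulin-dependent kinase, went from -1.02 to -0.64 (0.39; 4 probes, probe SD 0.09), with a scaled difference of -0.03.

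In the ribosomal, proteasome, translation and splicing lists medians ran from -0.05 to 0.04. Cytosolic ribosomal protein genes had a median of 0.04 over 60 members (scaled 0.08), against 0.05 for glycolysis (scaled 0.02). The median was -0.02 (scaled 0.02) for 29 proteasome genes, 0.03 (scaled -0.04) for 34 translation factors and -0.05 (scaled -0.04) for 53 splicing and RNA-binding genes. Eif4a1 was the 1 member of these 4 lists past 2-fold. Rpl31, a protein of the large ribosomal subunit, went from -0.66 to 0.32 (0.98; 2 probes, probe SD 0.72), and its probes differed by 0.47 and 1.49. Golgi, vesicle and endosome genes had a median of -0.06 (scaled -0.08) over 76 members, with Golga1 and Vps33a 2-fold higher and Arcn1 2-fold lower. Extracellular matrix genes (22 measured) had a median of 0.03 (scaled -0.01) and antioxidant and thioredoxin genes (17) -0.09 (scaled 0.10). Inflammation and acute phase genes (9) had a median of -0.08 (scaled -0.05) and polyamine genes (5) 0.11 (scaled -0.03). The 2-fold lower members of the antioxidant and inflammation lists were Mt1 and Serpina3n, already named.

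**Figure D4:**
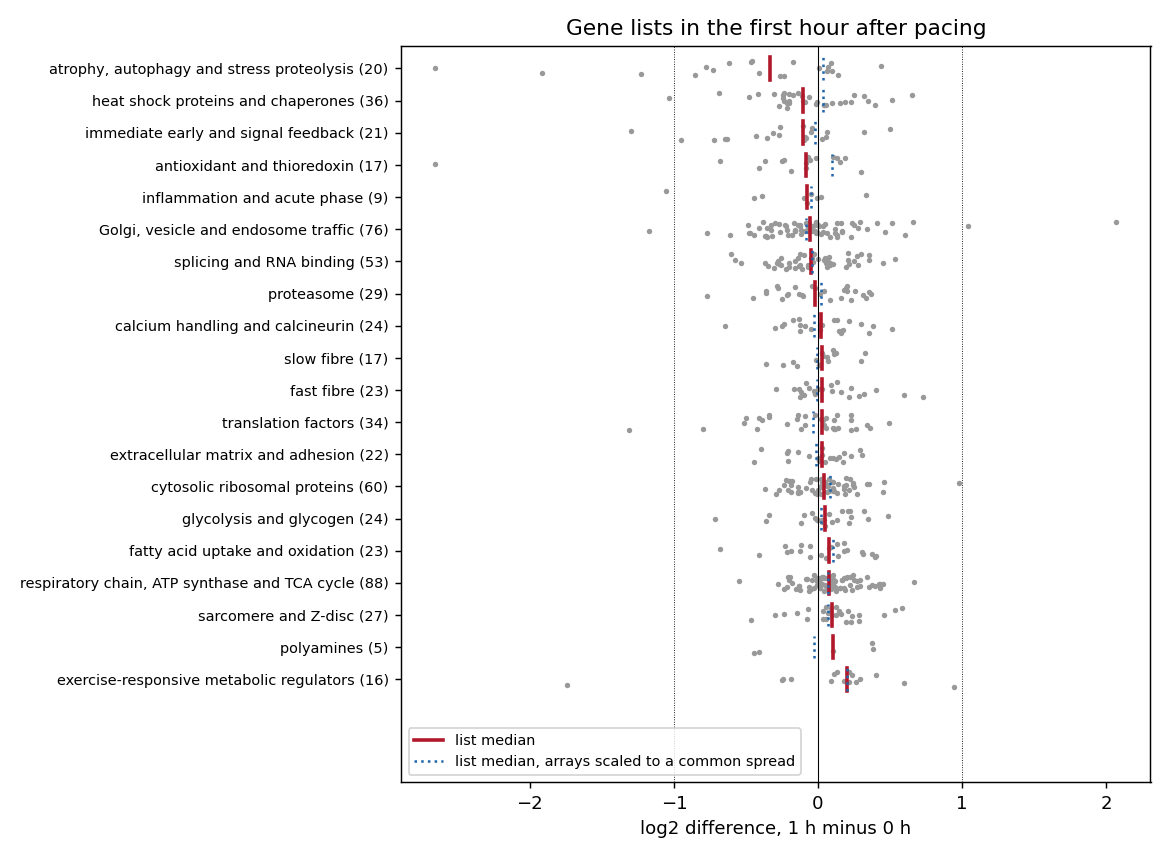
Log2 difference (1 h minus 0 h) of each measured member (grey points) of 20 gene lists, with the number of members in brackets, the list median (red bar) and the median after both arrays were scaled to a common spread (blue dotted bar); thin dotted lines mark 2-fold. The atrophy list has the lowest median, -0.33, and returns to 0.03 when scaled.

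Markers of other cell types were measured in part. Endothelial markers (5 of 10 measured) had a median difference of 0.18, from -0.15 for Pecam1 to 0.55 for Eng, and smooth muscle markers (5 of 7) a median of 0.22, from -0.52 for Myl9 to 0.88 for Actg2. Macrophage markers (3 of 11) had a median of -0.17, blood markers (3 of 8) 0.06, fibroblast markers (4 of 6) -0.06, fat markers (2 of 7) 0.24 and satellite cell markers (2 of 6) 0.12. The Schwann marker Pmp22 stood at 0.39, and neutrophil markers were not measured on both arrays. 0 of these markers were 2-fold different. Their part in the results was not tested, and a ratio to Pre gives no level, so the labelled tissue could not be checked against its markers. In whole muscle, fewer cells of a type and less RNA per cell cannot be told apart.

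Repeat probes gave a measure of how far spots of the same gene agree. The spots may differ in the RNA they bind, so this is not technical error alone. The median SD between a gene's probes in the difference was 0.215, and the robust SD of the difference over genes was 0.248. Of the 35 genes past 2-fold, 33 rested on 1 measured probe, a share of 1.28% of the 2579 genes with 1 probe, while Pdk4 and Trim63 were 2 of the 957 genes with several probes (0.209%). Counted as single probes the shares were nearer, with 1.28% of the probes of the first group and 1.10% of the 3099 probes of the second past 2-fold. A single spot past 2-fold without a second spot therefore has no check on these arrays. Probes without a gene name held a similar share. Of 5617 such probes measured on both arrays, 27 were 2-fold higher and 32 lower (1.05%), and those genes are not described here. The 128 probes past 2-fold lay in 41 of the 48 print runs (equal runs of probes in ID order), with at most 9 in 1 run.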

How the data were processed

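Total RNA of mouse skeletal muscle was measured on spotted 2-channel arrays, 1 per group. Each probe of each array has a log10 ratio in the deposited table, per the labels of paced muscle against Pre. The log base was read from the values: 29 cells of the 0 h array hold a rounding residue such as 9.64e-17, as log10 gives for a value next to 1 in double precision. The 1 h array holds 0 such cells, and its base was taken to be the same, which the values do not settle. Scanner, background correction and normalisation are not given in the sources used here, and the depth of signal is unknown, so the number of arrays limits the precision.

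Values within 1e-12 of 0 on the log10 scale (1762 at 0 h, the 29 residues included, and 1260 at 1 h) were set to missing, log2 ratios were computed, and the median of each array was subtracted (-0.001 at 0 h and -0.004 at 1 h in log2 units). Scaling and centring by the authors stay unknown. Of the probes, 6609 had exactly 1 gene symbol in the platform annotation, 284 several and 6979 none; 6599 were matched by Entrez ID to the GRCm38.p6 gene table, used for names. Probes with 1 symbol, measured on both arrays, were averaged per gene. Gene values at 3 h, 8 h and 24 h used the same probes where measured. Spots may also bind RNA of near-identical genes, which touches Mt1, Actg2, Ubb-ps and the ribosomal proteins.

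The text names the 15 genes with the highest and the 15 with the lowest difference, genes past 2-fold on several agreeing probes, the 10 highest and 10 lowest genes at 0 h, and up to 5 members of each list with the largest differences, plus those said to be chosen after their values were seen. The members and lists were chosen with earlier results of these data known. The 6 alternatives were zeros kept, a common spread, no centring, centring per print run, the median of probes and all probes of each array. The scripts were tested on simulated data. Python 3.11.15, pandas 2.3.3 and numpy 2.4.6 were used. The sham array was not used.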

Additional observations from a re-analysis of the deposited data

How the results depend on the processing

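Of the 6 alternatives, scaling both arrays to a common spread was the one that moved a count or a list median by more than its tolerance (1.5 times for a count, 0.215 log2 units for a median). It gave 7 higher and 8 lower genes in place of 17 and 18, 23 in place of 72 genes nearer to Pre at 1 h, and a median difference of 0.033 for the atrophy, autophagy and stress proteolysis list. Under the other 5 alternatives 16 to 18 genes were higher and 18 to 19 lower. Scaling also turned the sign of the medians of the heat shock, proteasome, translation factor, fast fibre, slow fibre, calcium, extracellular matrix, polyamine and antioxidant lists, whose sizes were at most 0.11 on either side, and the median of probes turned that of the fast fibre list to -0.02. Of the 35 genes past 2-fold, 24 dropped under it when scaled, 4 with zeros kept (Babam1, Gpat4 and Tmem233 among them), 2 with all probes of each array (Babam1 and Gpat4), 1 without centring, 1 with centring per print run and 0 with the median of probes. The sign of the difference turned in 0 of the 35 under these 6. Among named genes under 2-fold, Rgcc passed it at 1.54 when scaled, and Retreg1 passed it in the opposite direction, at 1.02, with all probes of each array. With zeros kept the difference of Pdk4 was -2.34. No paired analysis was possible because each group had 1 array, and for the same reason no replicate could be left out.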

Other observations

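Among genes with several probes, 18 differed by 1.5-fold or more, 9 of them lower at 1 h, with Pdk4 and Trim63 past 2-fold. In 17 of the 18 all probes lay on 1 side of 0, the exception being Tor1aip2. A large mean over 2 probes nearly fixes that, and over all 957 genes with several probes 371 (38.8%) had all probes on 1 side. The size of the difference varied between the probes of many of these genes. Slc7a2, a transporter of arginine and lysine, went from 0.98 to 0.30 (-0.68; probe SD 0.14). Alad, the second enzyme of heme synthesis, went from 0.41 to -0.18 (-0.59; probe SD 0.08). Mknk1, a kinase of the translation factor eIF4E, went from 0.64 to -0.06 (-0.70), but its probes disagreed in size (probe SD 0.83). Plin3, a coat protein of lipid droplets, went from -0.42 to 0.20 (0.63; probe SD 0.63), and Cox11, an assembly factor of cytochrome oxidase, from -0.54 to 0.13 (0.68; probe SD 0.81). These 5 genes were named after their values were seen.

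At 1 h, 6 genes were 2-fold from Pre that had not been at 0 h, each on 1 probe and named after their values were seen. With scaled arrays there were 29 such genes. Parvb, a parvin that links integrins to actin, went from 0.95 to 1.63 and stood at 2.47 at 24 h. Bach1, a repressor of heme and antioxidant genes, went from 0.94 to 1.49, Ubr4, a ubiquitin ligase, from 0.73 to 1.16, Mlycd from 0.67 to 1.07 and Tysnd1, a peroxisomal protease, from 0.86 to 1.02. Abhd10 was the 1 of the 6 on the low side. Differences of the 5 genes above Pre ran from 0.16 to 0.68, all under 2-fold.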
